A study of Homo sapiens with 11 samples.

Results

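The transfection of PC3 cells with siHOXA11 was examined on 4 arrays of a series of 11. PC3 is an established line of human prostate cancer cells taken from a bone metastasis. The arrays held siHOXA11 at 24 h and at 48 h, and as controls siNC at 24 h and the array titled siHOXB13 at 48 h. These controls were selected on a measured value: HOXB13 signal was high on both, whereas the array titled siNC at 48 h had low HOXB13 signal. The 48 h control therefore rests on the assumption that the titles of the siNC and siHOXB13 arrays were exchanged at 48 h, which the labels do not state. Values against the array titled siNC are given for some of the results that this choice changes. Other values at 48 h may depend on it too. Cells of all groups were transfected with small interfering RNA (siRNA), a pair of siRNAs being combined for each target and a universal negative control siRNA being used for siNC, and no other allele or agent distinguished them. The other siRNA arrays were siHOXA11-AS at both times, siHOXB13 at 24 h and the array titled siNC at 48 h. The remaining 3 arrays are titled sh. Each condition had 1 array, so that no difference at 1 time had a replicate, and the tests below take the 2 times as repeats of 1 comparison. The precision of every value is limited by this number.

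HOXA11 is a homeobox transcription factor of the 5' end of the HOXA cluster, best known from the development of the limb, kidney and uterus. HOXA11-AS is a long noncoding RNA transcribed from the opposite strand next to it. HOXB13 is a homeobox factor of the prostate lineage that can bind DNA together with the androgen receptor. In a knockdown, the guide strand of an siRNA pairs with its target RNA and directs its cleavage, and bases 2 to 8 of the guide, the seed, can also pair with other RNAs.

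The target sites of the siHOXA11 reagents are shown because no probe set carried the symbol HOXA11, alone or among several, in the annotation used here, and its knockdown was not checked. HOXA11 lies on chromosome 7. The sites of these designed oligonucleotides are written 5' to 3', and capitals mark bases 14 to 20 of the 23, those that pair with the seed of a 21-base guide strand complementary to bases 1 to 21. That layout of the strands was assumed and is not given in the sources used here.
siHOXA11 (1): aagataaatattaTATTATAtat
siHOXA11 (2): ttcaaaaaacttgTAAATAAagg
Both sites were rich in A and T, with 22 of 23 bases in siHOXA11 (1) and 18 of 23 in siHOXA11 (2).

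All values below are log2 intensities or differences between them. HOXB13 had 10.53 with siHOXA11 at 24 h and 11.12 at 48 h, against 10.10 with siNC at 24 h and 10.36 on the array titled siHOXB13 at 48 h. The siHOXA11-AS arrays had 10.02 and 11.20. The low values were 8.09 with siHOXB13 at 24 h and 8.52 on the array titled siNC at 48 h. As HOXB13 chose the controls, its levels are given as a description only. HOXA11-AS, the antisense partner of the target, had 6.29 with siHOXA11 at 24 h and 6.25 at 48 h, against 6.30 and 6.54 in the controls, and 6.01 and 6.40 with siHOXA11-AS.

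**Figure D1:**
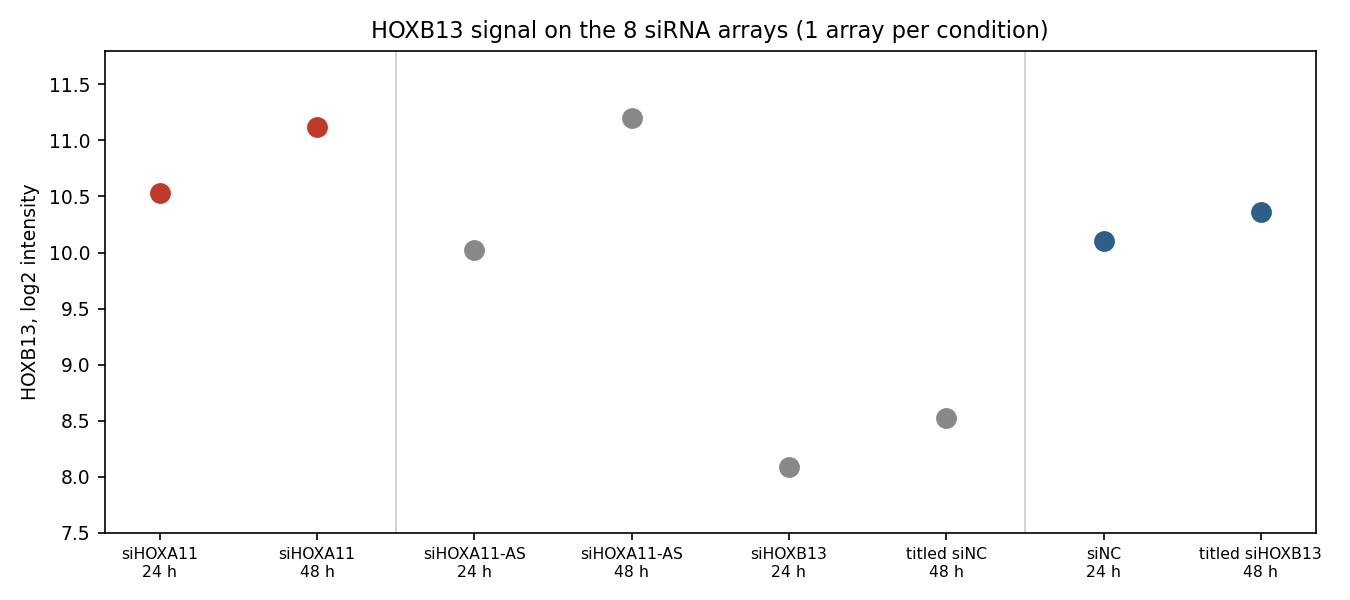
Log2 intensity of HOXB13 (vertical axis) on the 8 siRNA arrays, 1 point per array, with siHOXA11 in red, other siRNA arrays in grey and the controls used here in blue. The siHOXA11 arrays at 10.53 and 11.12 and the controls at 10.10 and 10.36 lie above siHOXB13 at 24 h (8.09) and the array titled siNC at 48 h (8.52).

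The siHOXA11 array of 48 h stood apart from the others. Its root mean square distance to the other 10 arrays was 0.75 to 0.96, whereas siHOXA11 and siNC at 24 h lay 0.49 apart and the control arrays of the different times 0.53 apart. Its median over the genes kept was 7.19, against 7.41 on its control, while at 24 h the median was 7.44 with siHOXA11 and 7.24 with siNC. Of 10 markers of PC3 cells, 9 were kept, with a median level of 13.30 and 12.91 with siHOXA11 against 13.16 and 14.21 in the controls. Taken gene by gene, their median difference was 0.70 at 24 h and 0.41 at 48 h. At 24 h 9 of these markers lay above 0, and at 48 h 7 lay above and 2 below. Of the markers of other cell types, 7 of 11 for fibroblasts, 6 of 11 for leukocytes and 2 of 7 for endothelium were kept, with medians of 5.42 to 6.34 on the same arrays. No mitochondrial transcript of the 7 kept differed 2-fold at either time. The part of the shifted distribution in the 48 h results was not tested.

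Of 16808 genes kept after the dimmer genes were left out, 620 were at least 2-fold higher with siHOXA11 than with siNC at 24 h (3.69%) and 164 were 2-fold lower (0.976%). At 48 h, 919 genes were 2-fold higher than on the array titled siHOXB13 (5.47%) and 2404 were lower (14.3%). The median of all genes was itself shifted by 0.16 at 24 h and by -0.13 at 48 h. With each array centred on its own median, 310 genes were higher and 361 lower at 24 h, and 1598 higher and 1628 lower at 48 h, so that the share of higher genes among them was 46.2% with centring and 79.1% without it at 24 h, and 49.5% with centring and 27.7% without it at 48 h. Centring balances higher and lower genes by its construction. The 48 h differences grew more negative with brightness. In the 4202 dimmest genes the median difference at 48 h was 0.03, with 211 genes higher and 239 lower, and in the 4202 brightest genes it was -0.31, with 257 higher and 900 lower.

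At both times, 136 genes were 2-fold higher with siHOXA11 (0.809%) and 58 were 2-fold lower (0.345%). After centring, 92 of these 136 and 49 of these 58 were still 2-fold different in the same direction. The sign of the difference was the same at both times for 53.5% of genes. In limma, fitted over the 4 arrays with a term for time and 1 residual degree of freedom, no gene passed an adjusted p of 0.05 (0%). At an unadjusted p under 0.05 there were 1148 genes, 592 higher and 556 lower. The smallest adjusted p in limma was 0.110, shared by MX1, TULP3, LCLAT1 and CDH1. With centred arrays limma called 100 genes, 52 higher and 48 lower, led by the same MX1, TULP3, CDH1 and LCLAT1 (largest adjusted p of these 3.79e-05). The variance prior then carried 36.4 degrees of freedom, against 8.27 without centring.

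**Figure D2:**
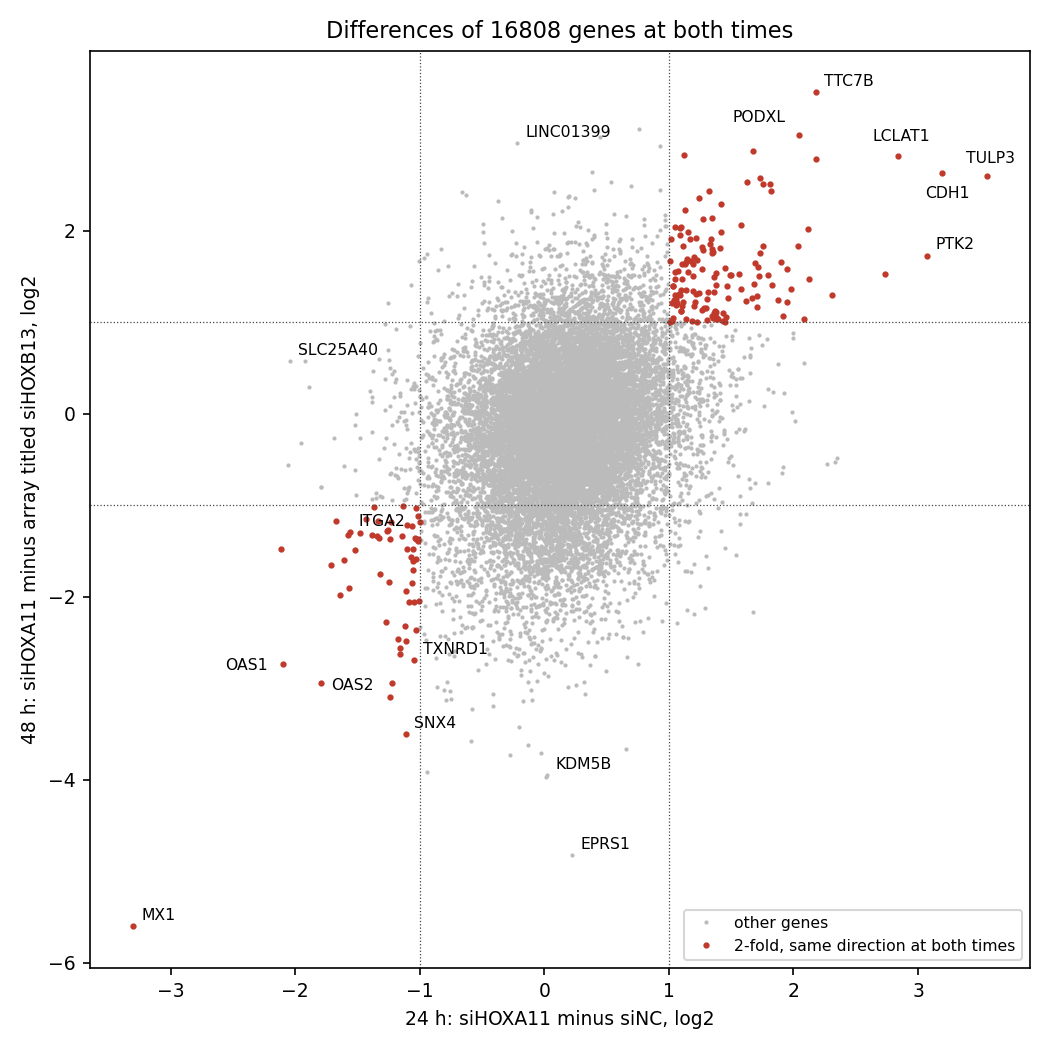
Log2 differences of 16808 genes at 24 h (horizontal, siHOXA11 minus siNC) and at 48 h (vertical, siHOXA11 minus the array titled siHOXB13), with dotted lines at a 2-fold difference. The 136 genes high and 58 genes low at both times are red, MX1 stands alone at the lower left, and EPRS1 and KDM5B were low at 48 h only.

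The genes with the largest positive differences at both times were high on most of the other siRNA arrays too. LCLAT1, an acyltransferase that remodels cardiolipin, had 13.70 with siHOXA11 at 24 h and 13.72 at 48 h, against 10.86 and 10.90 in the controls, a difference of 2.83 ± 0.37 (SE from limma, 4 arrays). The levels of LCLAT1 on the siHOXA11-AS arrays, on siHOXB13 at 24 h and on the array titled siNC at 48 h were 13.72 to 13.90, so that only the 2 controls were low. CDH1, encoding E-cadherin, the adhesion molecule of epithelial junctions, had 13.76 and 13.98 with siHOXA11, against 10.56 and 11.35 in the controls. This was a difference of 2.91 ± 0.38. CDH1 was also high with siHOXB13 at 24 h (13.49) and on the array titled siNC at 48 h (13.40), and lower with siHOXA11-AS (11.73 and 11.81). TULP3, which carries membrane receptors into cilia, had 12.22 and 11.36 with siHOXA11, against 8.67 and 8.76 in the controls. On the other 4 siRNA arrays TULP3 had 12.18 to 12.84, above its siHOXA11 level at 48 h, and its difference from the array titled siNC at 48 h was -1.11.

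PDP1, the phosphatase that activates pyruvate dehydrogenase, had 12.96 and 12.81 with siHOXA11, against 10.77 and 10.02 in the controls. PODXL, the sialomucin podocalyxin, had 10.71 and 10.84, against 8.66 and 7.79. TTC7B, a scaffold of the kinase complex that makes phosphatidylinositol phosphate at the plasma membrane, had 11.08 and 11.27, against 8.90 and 7.75. In each of these genes both siHOXA11 arrays were above both controls, as for 21.4% of all genes, and so were the other siRNA arrays. The remaining 6 of the 12 leading genes were UBE2V2, MSANTD3, OSTM1, SPRING1, AREL1 and MAPKAPK2, with differences of 1.75 to 2.12 at 24 h and 1.83 to 2.51 at 48 h. OSTM1, a partner of a lysosomal chloride channel needed by osteoclasts, separated siHOXA11 from siHOXA11-AS, with 9.45 and 9.34 with siHOXA11 and 6.13 and 5.86 with siHOXA11-AS, against 7.63 and 6.91 in the controls.

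Over the whole set of 136 genes, 7 were also 2-fold higher with siHOXA11 than with siHOXA11-AS at both times, and 4 were 2-fold higher than on the arrays with low HOXB13. By any amount, 71 and 60 of the 136 lay above those arrays at both times. Of the 58 genes 2-fold lower at both times, 20 and 19 were also 2-fold lower in the same comparisons. When the array titled siNC was taken as the 48 h reference, 23 of the 136 remained 2-fold higher at 48 h, beside 655 of all 16808 genes. The 136 were chosen on the same siHOXA11 arrays, so that these counts are descriptions only. For siHOXA11-AS and the arrays with low HOXB13, the shares of all genes were not counted. The counts against those arrays are therefore not called few or many. The list of membrane-associated genes that the study drew from siHOXA11-AS and siHOXB13 was chosen on arrays of this series. The study took genes over 2-fold higher on both than with siNC, so that a low siNC level was part of the choice. The differences here subtract siNC at 24 h and, at 48 h, the array assumed to be siNC. High counts were thus favoured in advance, and those of this list are descriptions only. Of its 73 genes, 71 were kept, with 36 higher and 0 lower at 24 h, beside 3.69% and 0.976% of all genes, and 42 higher and 3 lower at 48 h, beside 5.47% and 14.3%. Its median difference was 1.06 at 24 h and 1.19 at 48 h, beside 0.16 and -0.13 over all genes. Against the array titled siNC at 48 h the median of the list was -0.77.

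Among the genes with the largest negative differences at both times, antiviral genes led. MX1, an interferon-induced GTPase that blocks virus replication, had 9.71 with siHOXA11 at 24 h and 8.05 at 48 h, against 13.01 with siNC at 24 h and 13.65 on the array titled siHOXB13 at 48 h. The difference was -3.30 at 24 h and -5.60 at 48 h, and -4.45 ± 0.53 in limma (adjusted p of 0.110). MX1 had 11.93 with siHOXB13 at 24 h, 10.00 on the array titled siNC at 48 h, and 11.71 and 16.52 with siHOXA11-AS, so that both siHOXA11 arrays were the lowest of the 8. The arrays titled sh had 19.02 to 19.54, and the level of MX1 thus spanned a wide range over the series. OAS1 and OAS2 encode oligoadenylate synthetases, which sense double-stranded RNA and activate RNase L. OAS1 had 8.47 and 7.92 with siHOXA11, against 10.57 and 10.65 in the controls, and 9.17 to 13.98 on the other siRNA arrays. OAS2 had 6.20 and 6.11 with siHOXA11, against 7.998 and 9.06 in the controls. SAMD9, an antiviral restriction factor, had 9.05 and 8.52 with siHOXA11, against 10.62 and 10.42 in the controls. In each of these genes both siHOXA11 arrays were below both controls, as for 15.4% of all genes.

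**Figure D3:**
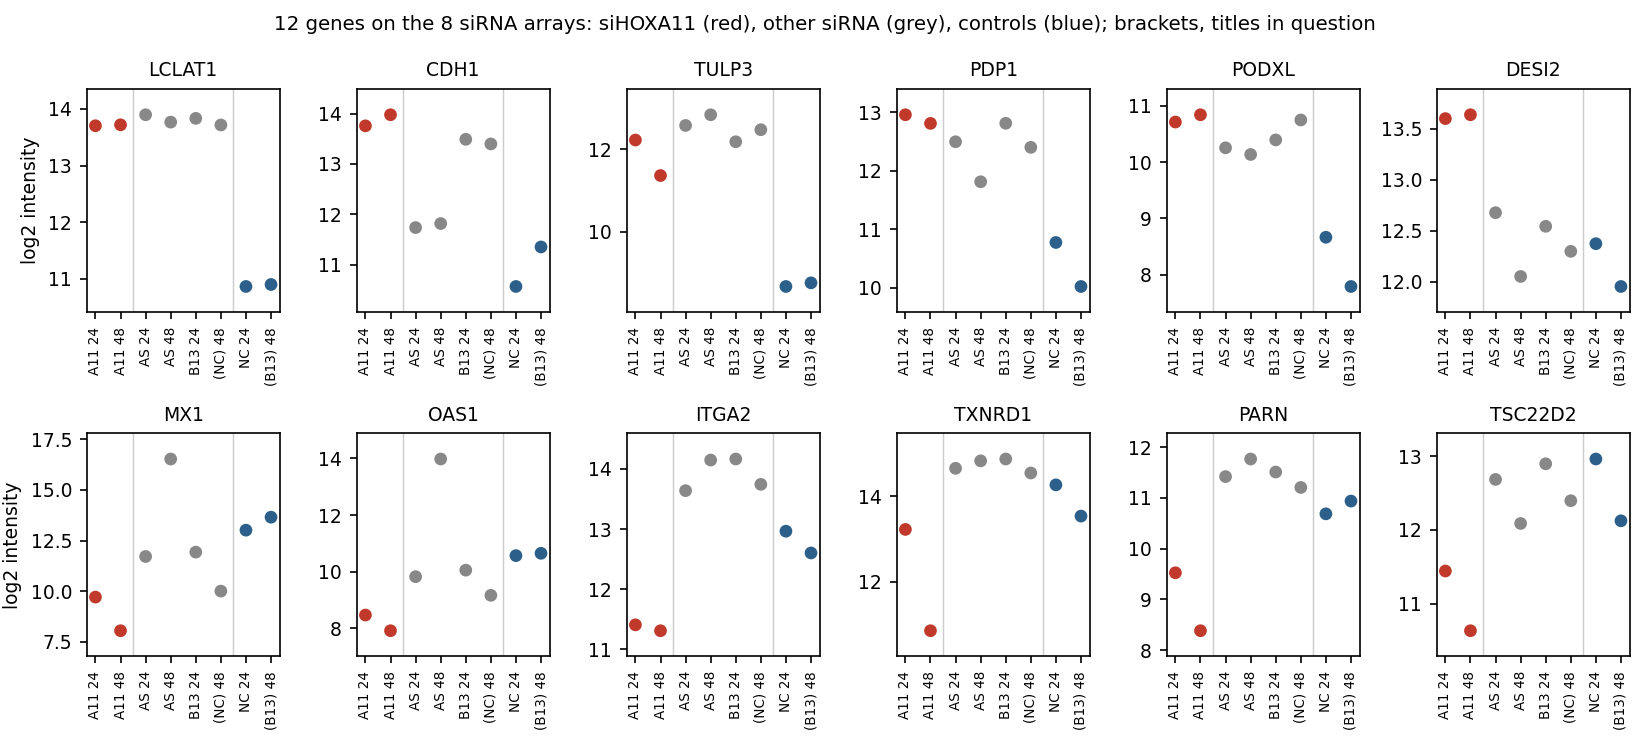
Log2 intensity (vertical axes, each with its own range) of 6 genes high and 6 genes low with siHOXA11 on the 8 siRNA arrays, where A11 is siHOXA11, AS siHOXA11-AS, B13 siHOXB13, NC siNC and brackets mark the arrays whose titles are in question. LCLAT1 and TULP3 were low on the blue control arrays only, whereas MX1, OAS1, ITGA2, TXNRD1, PARN and TSC22D2 had their lowest values on the red siHOXA11 arrays.

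Interferon-stimulated genes are switched on by the ISGF3 complex, which binds a promoter element built from repeated GAAA. Of 56 such genes listed, 53 had a named probe set and 52 were kept. At 24 h, 9 of the 52 were 2-fold lower with siHOXA11, beside 0.976% of all genes, and 1, GBP1, was higher (1.08). At 48 h, 21 were lower, beside 14.3% of all genes, and 0 were higher. Those lower at both times were MX1, OAS1, OAS2, SP110, SAMD9 and IFI44L, 6 in all. The interferon list had a median of -0.12 (24 h) and -0.63 (48 h), beside 0.16 and -0.13 over all genes, and -0.31 and -0.42 after centring. Against the array titled siNC at 48 h the median of the interferon list was -0.23. The median level of all genes kept was 7.19 with siHOXA11 at 48 h and 7.40 on that array, and was thus also lower with siHOXA11. SP110, a nuclear body protein, had 9.22 and 7.37 with siHOXA11, against 10.37 and 9.99 in the controls. IFI44L had 7.52 and 7.06, against 8.57 and 9.13. IFIH1 and RIGI, the cytosolic receptors of double-stranded RNA, were 2-fold lower at 48 h only, with differences of -1.48 and -1.45 beside -0.32 and 0.06 at 24 h. Other members differed little, among them IFITM3 (-0.21 and 0.05) and DDX60 (-0.26 and 0.11). In limma 0 of the 52 passed the adjusted threshold.

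**Figure D4:**
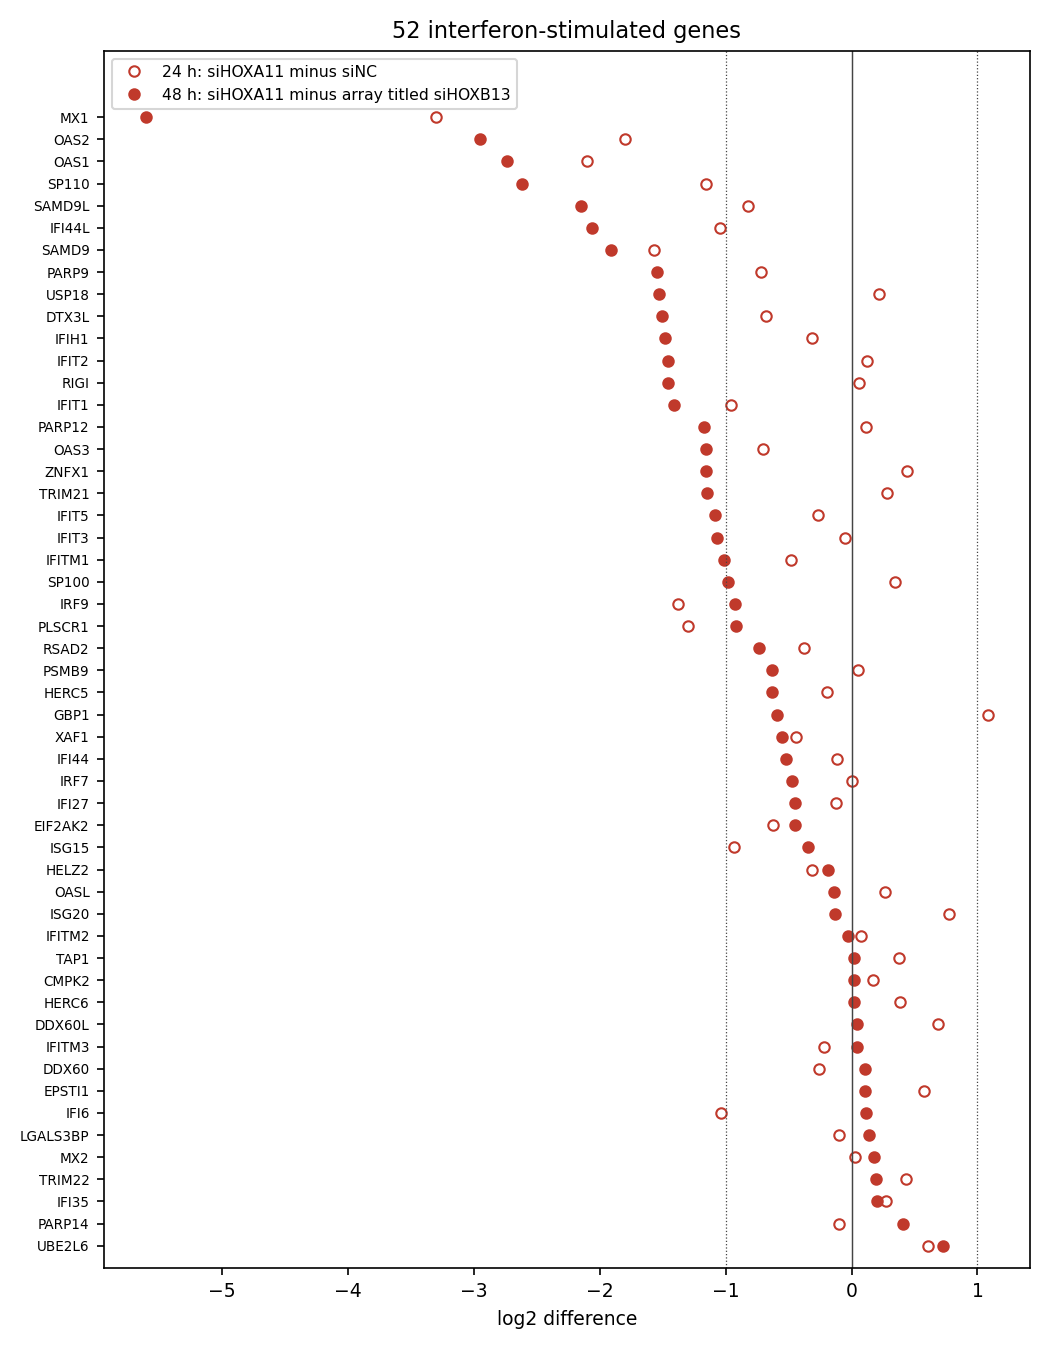
Log2 differences (horizontal axis) of the 52 interferon-stimulated genes kept, 1 row per gene, with open circles for 24 h and filled circles for 48 h, and dotted lines at a 2-fold difference. MX1 is farthest to the left at both times (-3.30 and -5.60), and 21 filled circles lie at or beyond -1.

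Promoters are shown for MX1, the gene with the most negative difference, and for IFI44L, also 2-fold lower at both times. They run from 250 bases before to 50 bases after the start of the gene in RefSeq (GRCh38.p14). Capitals mark GAAA and GAAA with NN, any bases, between them, searched on both strands, a core of the interferon-responsive element. MX1 is at chr21:41420308-41420607 on the plus strand, with the match beginning at base 262 of the 300, and IFI44L is at chr1:78620198-78620497 on the plus strand.
MX1: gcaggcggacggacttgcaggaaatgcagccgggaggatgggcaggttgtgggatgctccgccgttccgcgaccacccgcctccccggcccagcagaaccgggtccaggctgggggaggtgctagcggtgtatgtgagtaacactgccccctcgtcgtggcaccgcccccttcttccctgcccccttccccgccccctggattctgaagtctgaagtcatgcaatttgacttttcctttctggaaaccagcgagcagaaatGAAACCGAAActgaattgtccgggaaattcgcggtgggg
IFI44L: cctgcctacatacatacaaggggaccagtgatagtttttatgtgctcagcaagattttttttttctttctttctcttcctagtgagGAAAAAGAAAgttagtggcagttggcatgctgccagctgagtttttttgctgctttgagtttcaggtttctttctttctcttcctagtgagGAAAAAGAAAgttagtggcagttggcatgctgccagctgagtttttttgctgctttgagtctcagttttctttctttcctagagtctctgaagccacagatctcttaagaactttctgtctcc
These letters were found in 3.65% of all 27305 promoters of the table and in 29 of the 46 listed interferon-stimulated genes that it holds. They were found in 12 of 17 members that were 2-fold lower at 48 h and in 16 of 26 kept members that were not, or 70.6% and 61.5%. Of the genes lower at both times, OAS1 and SP110 had no match in this window, and OAS2 had no promoter among those searched.

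Genes that separated siHOXA11 from every other siRNA array of its time were few at both times together. There was 1 gene 2-fold higher than each of the other 3 arrays of its time (0.00595%) and 12 were 2-fold lower (0.0714%). At 24 h alone 21 were higher (0.125%) and 29 lower (0.173%). At 48 h alone 186 were higher (1.11%) and 1133 lower (6.74%). This comparison does not depend on the exchange of titles, since all the other arrays of each time enter it alike.

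Among those lower, ITGA2, the alpha subunit of a collagen-binding integrin, had 11.40 and 11.31 with siHOXA11, against 12.96 and 12.60 in the controls, and 13.64 to 14.17 on the other siRNA arrays. The smallest of its 6 differences from the other arrays was 1.29. TXNRD1, the cytosolic thioredoxin reductase, had 13.23 and 10.85 with siHOXA11, against 14.27 and 13.54 in the controls. PARN, a ribonuclease that trims poly(A) tails, had 9.53 and 8.38, against 10.69 and 10.94. TSC22D2 had 11.44 and 10.63, against 12.96 and 12.12. SNX4, a sorting nexin of endosomal recycling, had 6.64 and 4.81, against 7.75 and 8.31. All were below every other siRNA array. Besides MX1 and OAS1, the other leading genes were COX20, an assembly factor of cytochrome c oxidase, POLR1F, a subunit of RNA polymerase I, and RUFY3, with differences of -1.06 to -1.17 at 24 h and -1.23 to -2.46 at 48 h.

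The next genes were higher than on every other siRNA array of the same time, but all except 1 by less than 2-fold from the nearest. Among them, DESI2, an isopeptidase, had 13.60 and 13.63 with siHOXA11, against 12.37 and 11.95 in the controls. Its smallest difference from the other siRNA arrays of its time was 0.92. The other siRNA arrays had 12.05 to 12.68 of DESI2. BMP2K, a kinase, had 13.15 and 12.65, against 12.12 and 11.25. NADK2, the mitochondrial NAD kinase, had 9.35 and 9.92, against 8.08 and 8.79. FAM133B, IPCEF1 and SPDYA, an activator of cyclin-dependent kinases, differed by 1.30 to 1.37 at 24 h and 1.10 to 1.33 at 48 h. RNU6-605P, a U6 pseudogene, NAP1L4P2, DEFB108E and C1orf185 were the other leading genes and were dim, with 4.37 to 6.87 over the 8 arrays. Set against the other 6 siRNA arrays in limma, 0 genes passed, with a smallest adjusted p of 0.280.

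The remaining genes among the 12 with the largest negative differences at both times were CCNE2, SLF1, C6orf120, EIF1P7, GTF2IP7, SUMO2P12 and COX6CP1. CCNE2, the cyclin E2 of S phase entry, had 8.46 and 7.93 with siHOXA11, against 9.80 and 9.27 in the controls, and SLF1, a factor of the DNA damage response, had 5.24 and 5.04, against 6.62 and 6.36. EIF1P7, GTF2IP7, SUMO2P12 and COX6CP1 are pseudogenes, whose probes may share sequence with the parent genes, so that their values are uncertain.

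Other genes were named for a large difference at 1 time, whatever their difference at the other. EPRS1, the glutamyl-prolyl-tRNA synthetase, had 7.76 with siHOXA11 at 48 h, against 12.59 on the array titled siHOXB13, the most negative difference after MX1, and 12.57 at 24 h, against 12.35 with siNC. KDM5B, a histone demethylase, had 9.71, against 13.66, at 48 h. CCNG2, cyclin G2, had 8.06, against 11.98, at 48 h, and 8.21, against 9.15, at 24 h. MIR1184-3 had 6.11, against 10.08, at 48 h, on a probe set for the hairpin gene, which does not measure the mature miRNA. The largest positive differences at 48 h were those of TTC7B and PODXL, above, and of TRAJ14 (3.11), RPL21P38 (3.02) and LINC01399 (2.96), the last 3 being less than 2-fold higher at 24 h. At 24 h, PTK2, the focal adhesion kinase, differed by 3.07, with 11.89 with siHOXA11 against 8.82 with siNC, and PPIP5K2, an inositol phosphate kinase, by 2.74. Both were also 2-fold higher at 48 h, PTK2 by 1.73 and PPIP5K2 by 1.53. SLC25A40, a mitochondrial glutathione carrier, was 2.04 lower at 24 h on the log2 scale, with 6.62 against 8.66, and 0.58 higher at 48 h.

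**Figure D5:**
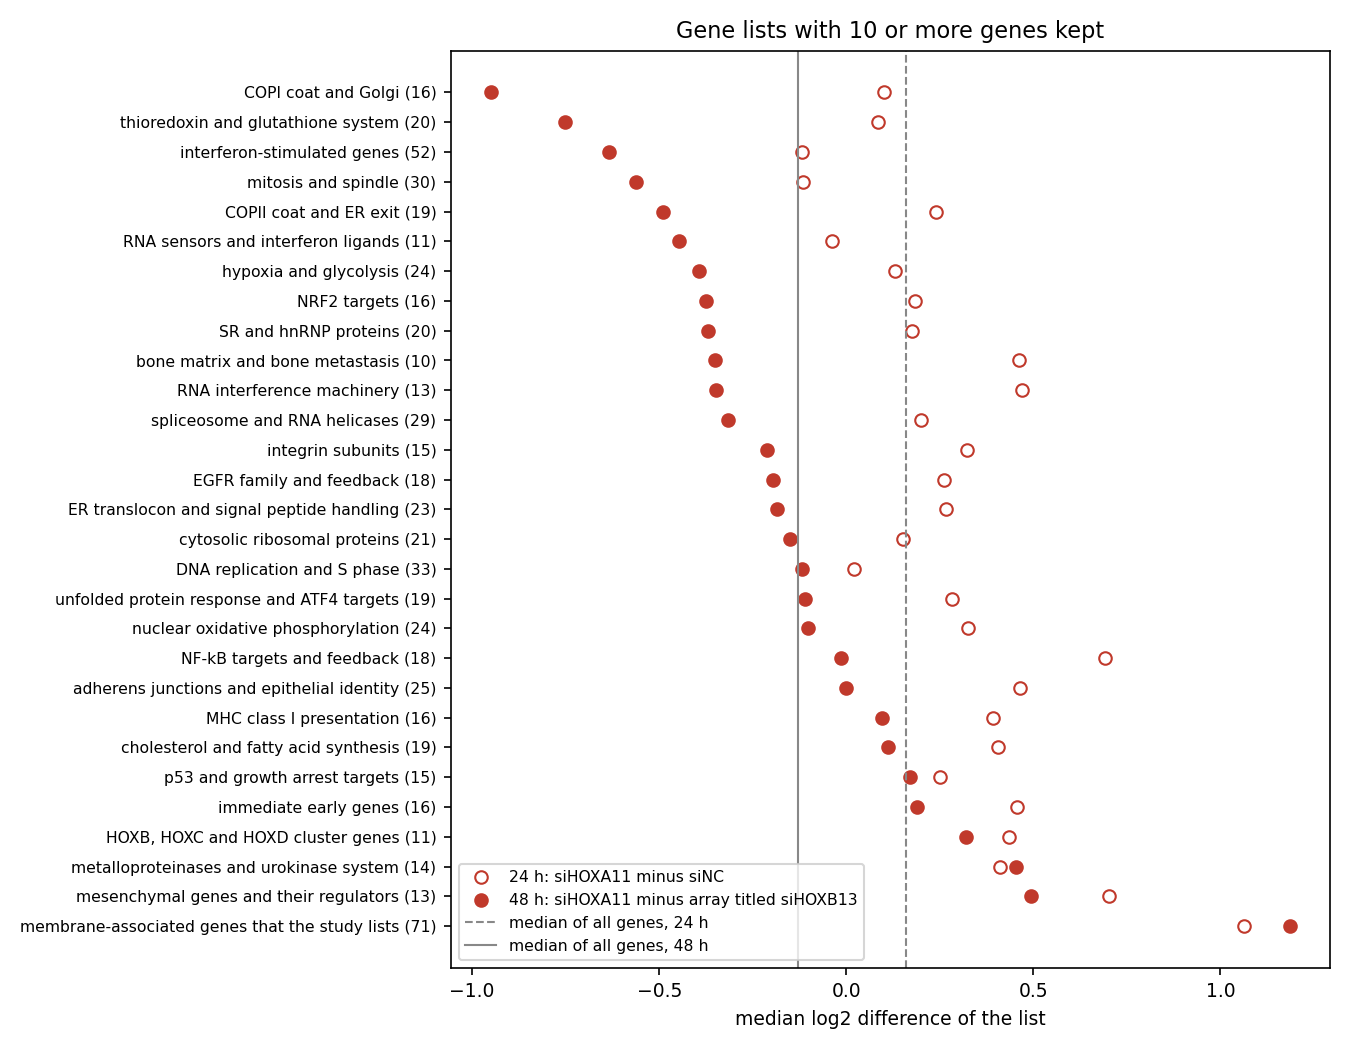
Median log2 differences (horizontal axis) of the gene lists with 10 or more genes kept, with the number kept in brackets, open circles for 24 h and filled circles for 48 h. Grey lines mark the medians of all genes (0.16, dashed, and -0.13, solid), and the COPI list lies farthest below at 48 h (-0.95) while the membrane-associated list lies farthest above (1.19).

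Lists of the secretory pathway differed in how many members were low at 48 h. COPI coats carry proteins back within the Golgi and to the endoplasmic reticulum (ER), and COPII coats carry them out of it. Of 16 COPI and Golgi genes kept, 7 were 2-fold lower and 0 higher at 48 h, beside 14.3% and 5.47% of all genes, with a median of -0.95, or -0.73 after centring, while at 24 h none differed 2-fold and the median was 0.10. COPB2, a coat subunit, had 9.75 with siHOXA11 at 48 h, against 11.97, and COPZ1 had 13.12, against 14.74. Of 19 COPII genes kept, 7 were lower and 0 higher at 48 h, with a median of -0.49, or -0.27 after centring. SEC23B, an inner coat subunit, had 8.60 with siHOXA11 at 48 h, against 11.63, and SEC31A had 11.61, against 13.16. Of 23 genes of the ER translocon and signal peptide handling, 4 were lower, SRP14 (-2.09) and SRPRA (-2.10) among them, and 1 was higher. That count was near the share of all genes, and the median of the ER translocon list was -0.18, beside -0.13 over all genes, and 0.03 after centring. Of the 4202 brightest genes, 900 were lower at 48 h.

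Genes of the thioredoxin and glutathione system reduce protein disulphides and peroxides. Their median at 48 h was -0.75, beside -0.13 over all genes, or -0.54 after centring. Of 20 kept, 6 were 2-fold lower at 48 h, beside 14.3% of all genes and 900 of the 4202 brightest genes. Besides TXNRD1 the 6 included the peroxiredoxins PRDX2 (-1.74) and PRDX3 (-1.25). Of 30 genes of mitosis and the spindle, 9 were lower at 48 h and 0 higher, beside 14.3% and 5.47% of all genes and 900 of the 4202 brightest genes that were lower, among them BUB3 of the spindle checkpoint (-2.14), ECT2, which drives cytokinesis (-3.02), ANLN (-1.61) and TTK (-1.57), while at 24 h none differed 2-fold. In RNA processing, 5 of 29 spliceosome and helicase genes were lower and 1 was higher at 48 h, near the shares of all genes. The one higher was DDX23 (2.49), and SRSF11, a splicing factor of another list, was low (-2.98).

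Several regulators of transcription were higher than the controls at both times. SNAI2, a repressor of epithelial genes, had 12.54 and 10.87 with siHOXA11, against 10.81 and 8.30 in the controls, in the same direction as CDH1. Against the array titled siNC at 48 h, however, the difference of SNAI2 was -0.54. In the list of mesenchymal genes and their regulators, 3 of 13 were higher and 0 lower at 24 h, beside 3.69% and 0.976% of all genes, and 2 were higher and 1 lower at 48 h, beside 5.47% and 14.3%. The median level of the mesenchymal list at 24 h was 9.75 with siHOXA11 and 9.54 with siNC. With siHOXA11-AS it was 9.95 and with siHOXB13 9.84, both above siHOXA11. MYC had 13.08 and 13.11, against 11.74 and 11.20, and JUNB had 6.10 and 6.96, against 5.01 and 4.92. CDKN1A, the inhibitor p21, and GADD45A were 2-fold higher at both times, by 1.14 and 1.03 at 24 h and by 1.03 and 1.02 at 48 h. In the NF-kB list 4 of 18 genes were higher and 0 lower at 24 h, beside the same 3.69% and 0.976%, and LIF (1.46) and IL6 (1.30) were among the higher. The median level of the NF-kB list at 24 h was 8.82 with siHOXA11 and 7.65 with siNC. With siHOXA11-AS it was 8.53 and with siHOXB13 8.78, so that siNC alone was low. IL6 had 9.47 with siHOXA11-AS and 8.99 with siHOXB13 at 24 h, above its 8.77 with siHOXA11. At 48 h, 1 NF-kB gene was higher, NFKBIA, the inhibitor of the pathway (1.03), and 3 were lower, with NFKB1 at -2.38, counts near the shares of all genes. Of the urokinase system, PLAU differed by 0.88 and 1.46 and PLAT by 0.90 and 1.66, and the membrane metalloproteinase MMP14 by 0.67 and 1.52. Against the array titled siNC at 48 h, the differences of CDKN1A, PLAU, PLAT and MMP14 lay between -0.61 and -0.09, below 0, and that of GADD45A was 0.11.

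Of 25 epithelial genes kept, 2 were 2-fold higher at 24 h, CDH1 and the claudin CLDN1 (1.48), beside 3.69% of all genes. At 48 h 3 were higher and 5 lower, beside 5.47% and 14.3% of all genes, and CTNND1, the p120 catenin that stabilises E-cadherin (-2.27), OCLN, the tight junction protein occludin (-1.61), and KRT18 (-1.46) were among the lower. Of 15 integrin subunits kept, 1 was higher and 1 lower at 24 h, beside 3.69% and 0.976% of all genes. At 48 h 2 subunits were higher and 3 lower, beside 5.47% and 14.3% of all genes. ITGAM, the alpha subunit of a leukocyte integrin, was dim and had 5.002 and 6.54 with siHOXA11, against 4.93 and 4.12 in the controls, the most positive difference of the integrin list at 48 h (2.42). Against the array titled siNC at 48 h the difference of ITGAM was 0.63. ITGB8 had a difference of 2.27 at 24 h and -0.55 at 48 h, and ITGA6, the laminin receptor subunit, had 0.13 and -1.27. The subunits ITGA5, ITGAV, ITGB1, ITGB4, ITGB5 and ITGB6 differed less than 2-fold at both times. ITGB1 had 18.46 and 17.60 with siHOXA11, against 18.14 and 18.22 in the controls, ITGAV had 8.59 and 8.24, against 8.42 and 7.65, and ITGA5 had 8.91 and 8.15, against 7.95 and 8.31. ITGB4 (0.53 and 0.10), ITGB5 (0.57 and -0.27) and ITGB6 (0.34 and 0.46) were similar in size. Of the other genes of the study, MMP3 (0.39 and -0.64), CCR2 (-0.62 and -0.22) and CXCL12 (0.18 and -0.03) differed less than 2-fold, and CCL2, IBSP and ITGB3 were below the level kept, with 3.38 to 4.40 over the 8 siRNA arrays.

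HOX genes near the target showed few differences. Of 18 genes and transcripts listed for the HOXA cluster, 7 were named and 4 kept, none 2-fold different at 24 h, and at 48 h HOXA-AS3 alone was lower (-1.41). Of 11 kept from the HOXB, HOXC and HOXD clusters, HOXB9 was 2-fold higher at 48 h (1.58), which was -0.03 against the array titled siNC, and its difference at 24 h was 0.79. Of 9 genes regulated by Hoxa11 in mouse development, 4 were kept, RUNX2, SOX9, SIX2 and IHH, and their differences lay between -0.18 and 0.48 at 24 h and between -0.50 and 0.58 at 48 h.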

How the data were processed

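Cultured PC3 cells were profiled on 11 Clariom D arrays. The deposited values are linear intensities that the authors made with Affymetrix Expression Console (per the submitters' processing notes); for its version, summary method and normalization, the sources used here give no statement. The labels state 20 uM siRNA and the methods a lower concentration, and the titles of 3 arrays say sh where other label fields say siRNA. Here log2 was taken with no further scaling. Of 138745 probe sets, 36176 carried 1 gene symbol in the platform annotation, 1119 several and 101450 none; checking the symbols through gene identifiers against RefSeq (GRCh38.p14) changed 0 of them. The brightest probe set stood for each of 33616 genes, and the 50% with the higher mean over all arrays were kept (16808). Less signal from fewer cells of a kind and less RNA per cell cannot be told apart in such bulk samples.

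Differences were taken within each time, with a 2-fold threshold and no test. The test was limma 3.58.1 (R 4.3.3; lmFit, eBayes, Benjamini-Hochberg) on the 4 arrays with time as a term, checked on simulated data; its p-values measure only the spread between single arrays, which may be technical. Named genes were the 12 largest differences in each direction common to both times, the 10 that stood farthest from all other siRNA arrays of their time, the 5 largest at each time, the genes the study discussed, and up to 4 leading members of each of 39 lists; further genes were named after their values were seen. The members, lists and tests were chosen with earlier results of these data known. Alternatives were quantile normalization, centring on the median, keeping dim genes, averaging the probe sets of each gene, other controls, other array sets and the methods' t-test. Python 3.11.15 with pandas 2.3.3 was used.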

Additional observations from a re-analysis of the deposited data

Results flagged for a closer look

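With siHOXA11, 41 genes were 2-fold higher at 24 h and 2-fold lower at 48 h than the control of the same time, and 3 genes went the opposite way. They were marked because the times moved in opposite directions. With 1 array per condition the difference between the times was not tested.

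Among the 41, the cytokine IL6 had 1.30 at 24 h and -1.56 at 48 h, and ID2, an inhibitor of helix-loop-helix factors, had 1.13 and -1.18. DNAJC3, an ER chaperone, had 1.08 and -1.16, and SMURF2, a ubiquitin ligase of TGF-beta signalling, had 1.13 and -1.72. The proteasome subunit PSMD1 had 1.01 and -1.28, and the protease ADAMTS1 had 1.15 and -1.18.

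List medians also had opposite signs. The median of all genes was itself 0.16 at 24 h and -0.13 at 48 h, and 22 of the 39 lists had a median above 0 at 24 h and below 0 at 48 h. With centred arrays 4 lists did. Given here are the 2 lists whose medians lay at least 0.3 from 0 at both times. The RNA interference machinery (13 genes kept) had a median of 0.47 at 24 h and -0.35 at 48 h, with DICER1, which makes miRNAs, at 0.86 and -1.73, AGO3 at 0.60 and -1.54, DGCR8 at 0.47 and -1.44 and PRKRA at 0.87 and 1.32. The bone matrix and bone metastasis list (10 kept) had a median of 0.46 at 24 h and -0.35 at 48 h, with EDN1 at 1.21 and 0.18, BMP4 at 0.56 and -0.61 and DKK1 at -0.14 and -1.51. After centring, these medians were 0.28 and -0.13 for the first list and 0.27 and -0.14 for the second. These differences between the times were not tested either.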

How the results depend on the processing

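Arrays were paired by time only, through the time term of the limma fit, because the labels carry no replicate numbers that the groups share. Leaving out an array leaves 1 time for the counts at both times (136 higher and 58 lower), with 620 to 919 genes higher and 164 to 2404 lower, and limma then called 0 genes in each case. With siNC at 24 h as the control at both times no count moved by over 1.5 times. Centred arrays gave 310 higher and 361 lower at 24 h, 1598 higher at 48 h, 92 lower at both times, and 100 called by limma. Quantile normalization gave 1577 higher at 48 h. Without a filter on dim genes 1611 were higher at 48 h and 292 lower at 24 h. Against the mean of the other 3 siRNA arrays of the same time 129 were higher and 103 lower at 24 h, 522 higher at 48 h, and 12 higher at both times. With labels as deposited 33 were higher and 29 lower at both times. Limma called 4 genes over 8 siRNA arrays with exchanged labels (LCLAT1, CDH1, PDP1 and TULP3, all higher), and 1 with an intensity trend (MX1, lower). It called 0 genes in its other settings, with 188 to 2874 at an unadjusted p under 0.05, and the methods' t-test called 0 after adjustment and 837 before. The causes were not tested.

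Differences at 48 h that turned sign with labels as deposited were those of TULP3 (-1.11), AREL1 (-0.48), GTF2IP7 (0.25), PPIP5K2 (-0.35), SNAI2 (-0.54), PLAU (-0.39), PLAT (-0.61), MMP14 (-0.085), CDKN1A (-0.33), HOXB9 (-0.027), CAV1 (-0.11), COL6A3 (-0.036), KRT7 (-0.43) and STEAP1 (-0.54), and the median of the membrane-associated list (-0.77). With siNC at 24 h as the control, PLAU (-0.019), GADD45A (-0.11) and KRT7 (-0.86) turned. Against the mean of the other 3 siRNA arrays, PPIP5K2 (-0.29) and the median of the membrane-associated list (-0.11) turned. No other difference of 2-fold or more among the 208 genes named by the rule or in the text, and no other list median of that size, changed sign under the scalings, filters and controls tried.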

Other observations

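Of 101419 probe sets without a gene name, outside the array's controls, 24047 were at or above the level of the dimmest gene kept, and of these 96 (0.399%) had a 2-fold higher value with siHOXA11 at both times and 156 (0.649%) a 2-fold lower one, so that lower values were the more frequent, while among the named genes 136 (0.809%) were higher and 58 (0.345%) lower at both times. At 48 h, 1667 of the 24047 were 2-fold higher and 3328 were 2-fold lower.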
